A study of Mus musculus with 24 samples.

Results

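The genes described here are 9 gastric-type genes that have been linked to serrated lesions of the colon: Vsig1, Ctse, Cldn18, Gjb5, Tff1, Tff2, Aqp5, Gkn1 and Anxa10. They are a list of names drawn from knowledge of stomach epithelium and of serrated lesions; no measured value enters the rule, but the names were listed with earlier results of these data known. All 9 symbols were matched to an identifier among the 45706 genes of the count tables. RNA was sequenced from organoids, gel-embedded cultures of intestinal epithelium, that had been made from proximal small intestine (SI) or from colon (COL) of mice. The question of the comparisons was how sudden expression of the BRAFV600E oncogene, of the p53R172H mutant or of both changes transcription.

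The donor mice, of strain C57BL/6N, were heterozygous for BraffloxV600E (genotype BRAF), for Trp53LSL-R172H (p53) or for both alleles (BRAFp53). All carried Villin::CreERT2, a Cre recombinase that is made only in cells that use the Villin promoter, that is in intestinal epithelium, and that acts once 4-hydroxytamoxifen (4-HT) is given. Induced organoids (on) received 4-HT for 24 h, at 0.5 µM in SI and 3.5 µM in COL, and non-induced organoids (off) received ethanol. RNA was taken on day 8 in SI and on day 3 in COL. Before induction the BraffloxV600E allele gives wild-type BRAF and the Trp53LSL-R172H allele is blocked by a stop cassette. Each of the 12 groups held 2 libraries, and in each tissue all libraries of a genotype were made from a single donor's culture. The spread between them is therefore that of handling, and a difference between genotypes cannot be told apart from a difference between donors. Likewise, a difference between tissues cannot be told apart from the differences in dose, day and culture medium. Per the methods, Wnt3a and the GSK3 inhibitor CHIR99021 were added to colonic cultures only.

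The surface and pits of the stomach are lined by surface (pit) cells, which secrete gastrokines such as Gkn1 and the trefoil peptide Tff1. The pits lead into glands, whose cells secrete Tff2 and digestive enzymes. Several proteins of these cells are absent from or scarce in normal intestine, and appear in sessile serrated lesions of the human colon, which often carry BRAFV600E. ANXA10, VSIG1, CTSE and CLDN18 are among the markers by which such lesions have been told from conventional adenomas.

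In the RefSeq promoter table of build GRCm38.p6, 6 of the 9 genes had an entry (Vsig1, Cldn18, Gjb5, Aqp5, Gkn1 and Anxa10), and Cldn18 had 2 start sites. The 250 bases upstream of the start site are shown for Anxa10, the gene that rose in all 4 BRAF and BRAFp53 cultures, and for Vsig1, the gene whose rise differed between COL cultures. Capitals mark matches to TGANTCA, the motif of AP-1 (dimers of Fos and Jun proteins), which was searched on both strands. The Anxa10 stretch lies at chr8:62123194-62123443 on the minus strand and the Vsig1 stretch at chrX:140907358-140907607 on the plus strand.
Anxa10: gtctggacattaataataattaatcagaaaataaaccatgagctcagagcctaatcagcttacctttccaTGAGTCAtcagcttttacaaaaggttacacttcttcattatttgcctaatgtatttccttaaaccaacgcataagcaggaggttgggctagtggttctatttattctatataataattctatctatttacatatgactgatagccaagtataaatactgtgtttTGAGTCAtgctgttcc
Vsig1: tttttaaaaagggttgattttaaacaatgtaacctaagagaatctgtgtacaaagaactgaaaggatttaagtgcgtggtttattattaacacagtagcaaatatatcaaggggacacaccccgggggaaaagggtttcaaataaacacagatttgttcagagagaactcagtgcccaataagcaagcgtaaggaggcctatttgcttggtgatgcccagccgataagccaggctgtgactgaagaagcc

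Over 300 bases (250 before and 50 after the start), the Anxa10 promoter held 2 AP-1 matches, at positions -180 and -16 from the start, and Gkn1 held 1, at -174. The promoters of Vsig1, Cldn18, Gjb5 and Aqp5 held 0. Of all 32851 promoters in the table, 7.81% held at least 1 match and 0.46% at least 2. Of the other letters searched, CCGGAA of ETS factors was found in Gkn1 and in 14.9% of all promoters. The letters CNATAAA of CDX factors were found in Gjb5 and in 10.9% of promoters. The GATA factor letters AGATAA were found in Gkn1 and, at 2 places, at 1 of the 2 Cldn18 starts, and in 11.2% of promoters. These motifs were chosen after expression had been seen, and a match describes the letters only.

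COL libraries held 51.2 to 78.2 M counts (median 63 M; M, 1e6) and SI libraries 44.4 to 68.2 M (median 56.3 M). Levels are given as counts per 1e6 after TMM scaling (CPM). A library's floor was set at 3 counts, which is 0.0381 to 0.0575 CPM in COL and 0.0475 to 0.0854 CPM in SI, and which covers counting error only. The intestinal markers Vil1, Epcam, Cdh1, Cdh17, Lgals4, Krt8 and Krt20 together gave at least 9130 CPM in every library, whereas 10 stromal and immune markers together gave at most 11.2 CPM. Trp53 rose from 218 ± 14.6 to 418 ± 2.76 CPM in COL p53 organoids and from 157 ± 0.695 to 267 ± 7.21 CPM in SI p53 organoids (mean ± SD, n = 2), and Braf was at 27.3 ± 0.698 and 36.9 ± 2.05 CPM in COL BRAF off and on, counts per gene showing total RNA of a gene and not the allele. The library SI BRAF on replicate 1 stood apart: it held 770 counts of Xist, the transcript of the silenced X chromosome, beside 1622 counts of Y-linked Ddx3y, where the other 3 libraries of its culture held 8 to 27 counts of Xist. The SI p53 and BRAFp53 cultures held 6123 to 9743 Xist counts, and the COL cultures at most 3, so that the SI BRAF and SI BRAFp53 cultures also differed in donor sex, and the SI and COL cultures of the p53 and of the BRAFp53 genotype came from mice of different sex.

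**Figure D1:**
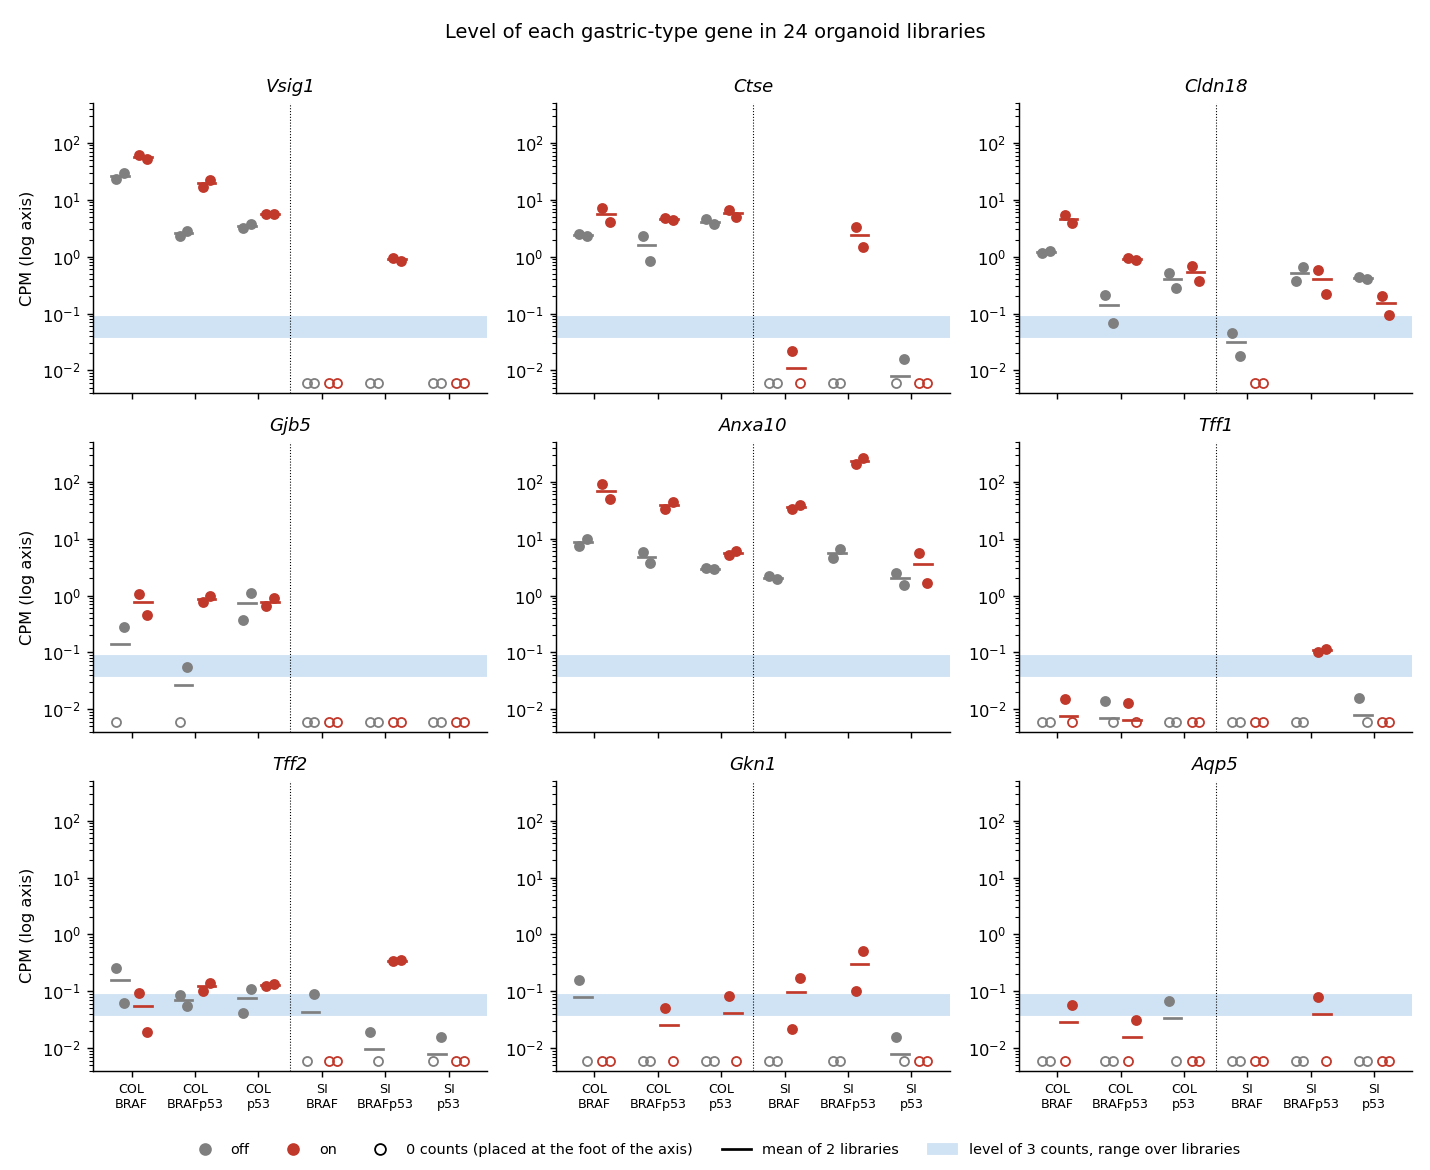
Level of each of the 9 genes in CPM (log axis) in the 24 libraries, with off in grey, on in red, bars at the mean of 2 libraries, open points for 0 counts and a blue band at the level of 3 counts. Anxa10 was above the floor in all 24 libraries, whereas Vsig1 and Ctse in SI were above it only in the BRAFp53 on libraries, and Gjb5 was at 0 in all SI libraries.

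On was compared with off by edgeR's quasi-likelihood test over the 12 libraries of a tissue, and a call required an adjusted p (Benjamini-Hochberg, over all tested genes) under 0.05. In COL, 5 of the 9 genes had enough counts to be tested (Vsig1, Ctse, Cldn18, Gjb5 and Anxa10). BRAFV600E alone raised 3 of them, Vsig1, Cldn18 and Anxa10, against a background of 19.9% of all 18972 tested genes called and 10.3% called higher. With both oncogenes all 5 were called higher, against 17.7% of genes called and 9.95% called higher. p53R172H alone gave 0 calls among them by edgeR, against 0.142% of genes called. At an unadjusted p under 0.05 there were 2 in that arm, DESeq2 called 2 (Anxa10 and Vsig1) and limma-voom called 0. The median log2 fold change of the 5 tested genes was 1.93 with BRAFV600E, 2.87 with both oncogenes and 0.51 with p53R172H, where that of all tested genes was -0.01, -0.04 and 0.00. The study itself had singled out Vsig1, Ctse, Cldn18 and Gjb5 from these libraries, so their direction is not independent evidence.

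In SI, 5 genes were tested (Vsig1, Ctse, Cldn18, Tff2 and Anxa10). Of these, Vsig1, Ctse and Tff2 had enough counts through the BRAFp53 on libraries alone, so that a difference there was bound to follow. With BRAFV600E alone Anxa10 was called higher, where 31.7% of all 16856 tested genes were called and 17.5% were called higher. The other 4 had 0 to 5 counts in all over the 4 libraries of that culture. A fall was therefore not detectable, and a rise was not seen, with at most 1 count in either on library. With both oncogenes Anxa10 was called higher, where 11.5% of genes were called and 6.98% called higher. Vsig1 and Ctse were called higher too, and for the reason given their calls are not read against these shares. p53R172H alone gave 0 calls among the 5, with 0 at an unadjusted p under 0.05 and 0 by DESeq2 or limma-voom, and 0% of genes called. In that culture Vsig1, Ctse and Tff2 had at most 1 count in all, so that a fall in them was not detectable. Anxa10 was called there by edgeR without a filter on low counts (adjusted p = 0.00086). Tff1, Gkn1 and Aqp5 were not tested in either tissue, Tff2 was not in COL, and Gjb5 was not in SI. In bulk RNA, more cells that express a gene and more RNA per cell cannot be told apart.

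Vsig1 (ENSMUSG00000031430, chromosome X, 140907608 to 140939472, GENCODE M21) encodes an adhesion molecule of the immunoglobulin superfamily found at the junctions of stomach epithelium. In COL BRAF organoids it was at 23.3 and 29.1 CPM in the off and 60.2 and 51.4 CPM in the on libraries. In COL BRAFp53 organoids it was at 2.29 and 2.83 CPM off and 17 and 21.9 CPM on. The on libraries lay above the off libraries in both cultures, but the off level of the BRAF culture was above the on level of the BRAFp53 culture. The log2 fold change was 1.09 ± 0.18 (± SE, adjusted p = 0.00154) in the BRAF culture and 2.87 ± 0.2 (adjusted p = 2.55e-05) in the BRAFp53 culture. In COL p53 organoids it was at 3.14 and 3.72 CPM off and 5.58 and 5.68 CPM on, again without overlap, at a log2 fold change of 0.71 ± 0.19 that was not called (adjusted p = 0.22). This p was 0.0254 without a filter on low counts and 0.0252 by DESeq2.

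The difference between the COL responses, BRAFp53 minus BRAF, was called for 1 of the 5 tested genes, Vsig1, against 0.907% of all tested genes. It was 1.78 ± 0.26 on the log2 scale (adjusted p = 0.0354), and the level after induction was nonetheless higher in the BRAF culture, at 55.8 ± 6.19 against 19.5 ± 3.46 CPM. The call was lost without COL BRAF on replicate 1 (adjusted p = 0.0721), on replicate 2 (0.106) or off replicate 1 (0.0802), and without COL BRAFp53 on replicate 2 (0.0816) or off replicate 2 (0.0512), while the difference stayed between 1.59 and 1.99. For the other 4 tested genes the differences were -0.01 ± 0.41 for Anxa10, 0.71 ± 0.73 for Cldn18, 0.28 ± 0.57 for Ctse and 2.41 ± 1.81 for Gjb5, with adjusted p from 0.508 to 1.

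In SI, Vsig1 had 0 counts in 10 of 12 libraries, and 48 and 50 counts in BRAFp53 on replicates 1 and 2. That was 0.897 ± 0.0865 CPM, at least 15.5-fold higher than off (off set at the floor of 3 counts per library; adjusted p = 0.0188), and below each of the 6 COL groups. Leaving out any of the 4 BRAFp53 libraries left Vsig1 uncalled, with adjusted p from 0.0967 to 0.123, and DESeq2 gave no adjusted p.

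Cldn18 (ENSMUSG00000032473, chromosome 9, 99689461 to 99717267) encodes claudin 18, a tight junction protein with a stomach and a lung isoform that start at different promoters, which counts per gene do not separate. In COL BRAF organoids it was at 1.18 and 1.25 CPM off and 5.36 and 3.91 CPM on. In COL BRAFp53 organoids it was at 0.211 and 0.068 CPM off, the lower value resting on 5 counts, and 0.939 and 0.877 CPM on. Off and on did not overlap in either culture, and the log2 fold changes were 1.93 ± 0.5 (adjusted p = 0.018) and 2.64 ± 0.57 (adjusted p = 0.00775). The BRAF call was lost without on replicate 1 (adjusted p = 0.127), off replicate 1 (0.101) or off replicate 2 (0.0857), and the BRAFp53 call without off replicate 2 (0.0519). In COL p53 organoids on and off overlapped, at 0.399 ± 0.172 CPM off and 0.53 ± 0.228 CPM on.

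Cldn18 was low in SI and was not called in any SI culture. It had 19 and 34 counts off and 29 and 13 on in the BRAFp53 culture (log2 fold change -0.38 ± 0.83), and 27 and 25 off and 13 and 5 on in the p53 culture (-1.45 ± 0.86). The BRAF culture had 2 and 1 counts off and 0 in both on libraries, all at or under the floor. Of the members detected in SI off organoids, Cldn18 thus differed between the donor cultures, being above the floor in the p53 and BRAFp53 cultures and not in the BRAF culture.

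Gjb5 (ENSMUSG00000042357, chromosome 4, 127354809 to 127358181) encodes the gap junction protein connexin 31.1. COL BRAF organoids had 0 and 18 counts off and 70 and 24 on, and COL BRAFp53 organoids 0 and 4 off and 61 and 62 on. COL p53 organoids had 27 and 80 off and 47 and 69 on. In CPM the COL p53 off libraries, at 0.37 and 1.11, bracketed the on libraries of all 3 COL cultures, while the off libraries of the BRAF and BRAFp53 cultures lay below them. The log2 fold change was called in the BRAFp53 culture (4.84 ± 1.41, adjusted p = 0.0344) and not in the BRAF culture (2.43 ± 1.2, adjusted p = 0.186). The BRAFp53 call was lost without on replicate 1 (adjusted p = 0.0721), on replicate 2 (0.08) or off replicate 1 (0.136), and by limma-voom (0.0508), and Gjb5 became called in the BRAF culture with no filter on low counts (2.42 ± 0.79, adjusted p = 0.0172) and without off replicate 2 (0.0188), whose absence left the off group at 0. All 12 SI libraries had 0 counts.

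Ctse (ENSMUSG00000004552, chromosome 1, 131638306 to 131675505) encodes cathepsin E, an aspartic protease of stomach surface cells. In COL BRAF organoids it was at 2.52 and 2.28 CPM off and 7.07 and 4.12 CPM on. In COL BRAFp53 organoids it was at 2.32 and 0.829 CPM off and 4.83 and 4.37 CPM on. In COL p53 organoids it was at 4.52 and 3.72 CPM off and 6.73 and 5.04 CPM on. The p53 culture thus held Ctse before induction at a level that overlapped that of the BRAFp53 culture after it. The change was called in the BRAFp53 culture, at 1.5 ± 0.41 (adjusted p = 0.0259). It missed the threshold in the BRAF culture, at 1.22 ± 0.4 (adjusted p = 0.0527). DESeq2 (0.0141), limma-voom (0.044) and edgeR without a filter (0.00322) called Ctse in the BRAF culture, as did edgeR without COL BRAF on replicate 2 (0.0451) or COL BRAFp53 off replicate 1 (0.0117) or 2 (0.0113). Conversely, the BRAFp53 call was lost without on replicate 1 (0.101), on replicate 2 (0.0602) or off replicate 2 (0.122), and the log2 fold change in the absence of the last was 0.95. Leaving out off replicate 1 moved it the other way, to 2.41 (adjusted p = 0.00432).

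In SI, Ctse had 1 count in SI BRAF on replicate 1, 1 in SI p53 off replicate 2 and 0 in the other 8 libraries outside the BRAFp53 on group. BRAFp53 on replicates 1 and 2 had 164 and 88 counts, 2.37 ± 1.27 CPM, which overlapped the levels of COL BRAF off and COL BRAFp53 off organoids. This was at least 41.1-fold above off (adjusted p = 0.0016), and at least 25.5-fold without on replicate 1.

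Anxa10 (ENSMUSG00000031635, chromosome 8, 62057042 to 62123150) encodes annexin A10, a member of the calcium-dependent phospholipid-binding annexins that is expressed in the stomach and serves as a marker of serrated lesions. In SI BRAFp53 organoids it was at 4.53 and 6.5 CPM off and 207 and 261 CPM on. In SI BRAF organoids it was at 2.18 and 1.92 CPM off and 33.3 and 39.8 CPM on. On lay above off in both cultures, with log2 fold changes of 5.39 ± 0.41 (adjusted p = 3.27e-06) and 4.13 ± 0.41 (adjusted p = 7.91e-06). Without the library that stood apart, SI BRAF on replicate 1, the latter was 4.28 ± 0.43 (adjusted p = 7.27e-06).

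COL BRAF organoids held Anxa10 at 7.47 and 10 CPM off and 90.2 and 49.1 CPM on, and COL BRAFp53 organoids at 5.86 and 3.66 CPM off and 33.8 and 44.2 CPM on. The log2 fold changes were almost the same, 3.00 ± 0.3 (adjusted p = 6.42e-05) and 2.99 ± 0.3 (adjusted p = 8.89e-05), and both calls were kept under all alternatives run. In p53 organoids Anxa10 was at 3.03 and 2.87 CPM off and 5.18 and 6.1 CPM on in COL, and at 2.47 and 1.52 CPM off and 5.49 and 1.66 CPM on in SI. The COL values did not overlap and the SI values did, and neither change was called (0.93 ± 0.3 with adjusted p = 0.356, and 0.85 ± 0.41 with adjusted p = 0.974). Without a filter on low counts both were called (adjusted p = 0.000262 and 0.00086), and DESeq2 called the COL change (0.0449).

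**Figure D2:**
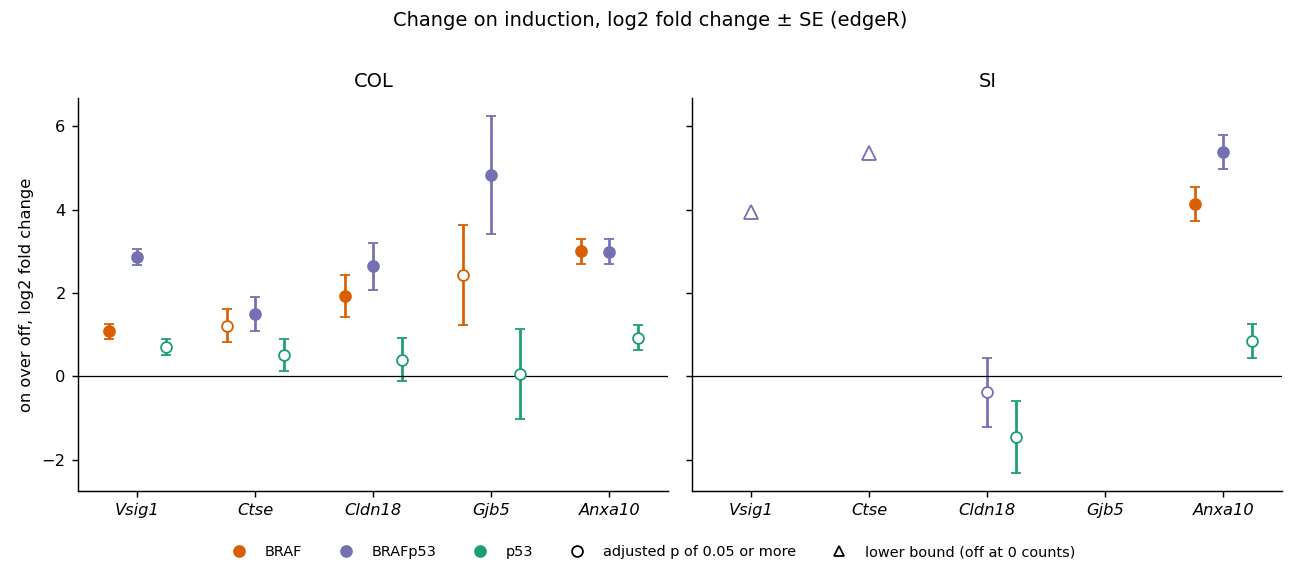
Log2 fold change of on over off with its SE for 5 genes in COL (left) and SI (right), colored by genotype and filled where the adjusted p was under 0.05; triangles are lower bounds where off had 0 counts, and changes with off at 3 or fewer counts in all are left out. Anxa10 lay at 2.99 to 5.39 in the 4 BRAF and BRAFp53 cultures, and Vsig1 in COL at 1.09 with BRAFV600E and 2.87 with both oncogenes.

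Between the SI cultures, the response of Anxa10 was 1.26 ± 0.53 higher on the log2 scale in BRAFp53 than in BRAF, which was not called (adjusted p = 0.181). Of the 5 tested genes 0 were called in this comparison by edgeR, 2 had an unadjusted p under 0.05, and DESeq2 and limma-voom called 0, where edgeR called 8.2% of all genes. With the SI BRAF culture at 0 to 5 counts in all for the genes other than Anxa10, this count is not read against that share. Anxa10 was called with no filter on low counts (adjusted p = 5.52e-06), and without SI p53 on replicate 1 (0.0388) or 2 (0.0389). At an unadjusted p under 0.05 there were 3 by DESeq2 and 4 by limma-voom. For Vsig1 and Ctse the size of the SI difference has no defined value, since the BRAF culture was at or under 1 count in every library.

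COL and SI responses were compared in a fit of all 24 libraries. For BRAFp53, the response of Anxa10 was called smaller in COL than in SI, where 2.13% of all 19673 tested genes were called with a smaller COL response and 3.52% in either direction. The difference for Anxa10 was -2.44 ± 0.53 (adjusted p = 0.0143). The call was lost without COL BRAFp53 on replicate 1 (0.0612) or off replicate 1 (0.0617), or SI BRAFp53 on replicate 2 (0.0671) or off replicate 1 (0.0788), while the difference in these fits stayed between -2.27 and -1.99. Of the other 6 tested genes, Vsig1 and Ctse were called too (adjusted p of 0.00959 and 0.00325), but their SI off libraries were at 0, so that the size of the difference has no defined value and the calls are not read against these shares. The Vsig1 call was lost without SI BRAFp53 off replicate 1 (0.0694) or 2 (0.0592) and by limma-voom (0.0781). Cldn18 went the other way, at 2.98 ± 0.88 (adjusted p = 0.072), and passed with DESeq2 (0.0192), with no filter (0.041), without COL BRAFp53 off replicate 1 (0.0364) or without SI BRAFp53 on replicate 1 (0.0491). For BRAF, 0 of 7 genes were called by edgeR, DESeq2 or limma-voom, with 3 at an unadjusted p under 0.05 in edgeR, where 10.7% of all genes were called. Apart from Anxa10, the tested genes had 0 to 7 counts in all in the SI BRAF culture, so that for them the comparison is not read against that share. The Anxa10 difference there was -1.18 ± 0.55 (adjusted p = 0.199).

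Before induction the tissues differed. When the 2 off libraries of each culture were summed and 3 COL cultures compared with 3 SI cultures, 2 of 4 tested genes, Vsig1 and Ctse, were called higher in COL, where 17% of all genes were called higher and 29.6% called in all. Both had enough counts to be tested through the COL cultures alone, so that their calls were bound to follow and are not read against these shares. Vsig1 had 4354 counts over the 6 COL off libraries and 0 over the 6 SI off libraries, at least 194-fold higher (adjusted p = 0.0104), and at least 127-fold without COL BRAF off replicate 2. Ctse had 1146 and 1 counts, a ratio of 894 (95% interval 160 to 35300 from counting error only; adjusted p = 0.00128). The ratio rests on that 1 count, in SI p53 off replicate 2, and without this library SI was at 0 and COL at least 47.5-fold higher. Anxa10 and Cldn18 were not called (0.78 ± 0.55 and 0.86 ± 1.05), and Gjb5, with 129 and 0 counts, was at least 5.48-fold higher. Of its counts 80 were in COL p53 off replicate 2, without which the bound was 2.56-fold. Gjb5 had too few counts for the filter, and was called by edgeR without a filter (adjusted p = 0.0241) and by DESeq2.

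The remaining 4 genes encode proteins that are secreted or carry water, and they stayed near the floor. Tff1 (ENSMUSG00000024032, chromosome 17, 31161395 to 31165277) and Tff2 (ENSMUSG00000024028, chromosome 17, 31141049 to 31144282) encode trefoil peptides that protect mucosa. Tff1 had 5 and 7 counts in the SI BRAFp53 on libraries and at most 1 in the other 22, and its exons overlap those of Gm15318 on the other strand, whose reads may not be told apart. Tff2 had 17 and 21 counts in the SI BRAFp53 on libraries, against 1 and 0 off, and at most 5 in the other SI libraries. These counts amount to 0.108 ± 0.0122 CPM for Tff1 and 0.345 ± 0.00827 CPM for Tff2. For Tff2 the ratio of on to off was 35.9 (95% interval 6.07 to 1450, counting error only), and it was not called (adjusted p = 0.114), though limma-voom called it (0.0424). Tff2 had enough counts to be tested in SI through these on libraries alone, so that call is not read as support. For Tff1, on was at least 1.88-fold above off. In COL, Tff2 had 1 to 18 counts per library, the highest being COL BRAF off replicate 1. On and off overlapped in COL BRAF, and on lay above off by a few counts in COL BRAFp53 (8 and 9 against 6 and 4) and COL p53 (9 and 10 against 3 and 8).

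Gkn1 (ENSMUSG00000030050, chromosome 6, 87345650 to 87350942), the gastrokine of pit cells, had 5 and 30 counts in the SI BRAFp53 on libraries and 0 in both off libraries. The replicates were far apart, and on was at least 5.2-fold above off on average, and at least 1.73-fold without on replicate 2. It also had 1 and 6 counts in the SI BRAF on libraries against 0 off, and 11 counts in COL BRAF off replicate 1, so that counts above the floor were not limited to induced libraries. Aqp5 (ENSMUSG00000044217, chromosome 15, 99590782 to 99594829), a water channel, had at most 5 counts in any library. With no filter on low counts, Tff1, Tff2, Gkn1 and Aqp5 were not called in any of the 6 comparisons of on with off, the adjusted p in the SI BRAFp53 culture being 0.467, 0.151, 0.0623 and 0.745. In COL, Tff1, Gkn1 and Aqp5 exceeded the floor in 0, 3 and 1 of 12 libraries. A fall in them was therefore not detectable at this depth, and the COL on libraries held at most 6 counts of each.

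**Figure D3:**
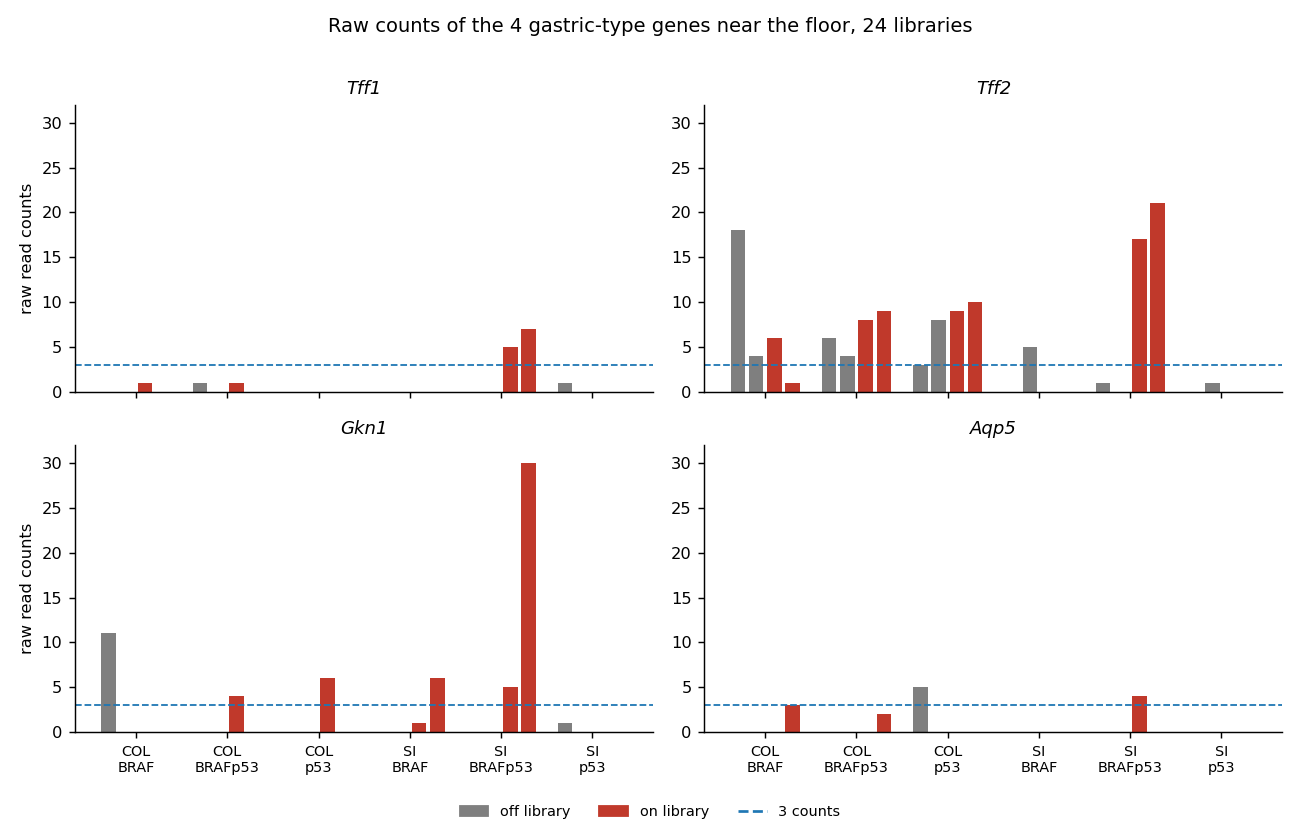
Raw read counts of Tff1, Tff2, Gkn1 and Aqp5 in each of the 24 libraries, with off in grey, on in red and a dashed line at 3 counts. Tff1, Tff2 and Gkn1 exceeded the line in both SI BRAFp53 on libraries, with 5 and 7, 17 and 21, and 5 and 30 counts, and in neither off library of that culture.

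In the SI BRAFp53 culture, the number of the 9 genes above the floor went from 2 in each off library to 8 and 7 in the on libraries. It was 1 or 2 in the other SI libraries and 5 to 7 in the COL libraries, whether on or off. The sum over the 9 genes was 213 and 265 CPM in the SI BRAFp53 on libraries, of which Anxa10 made up 97.4% and 98.7%. In the COL BRAF on libraries the sum was 164 and 109 CPM and Anxa10 made up 55% and 45%, Vsig1 being most of the rest. Scaled by exon length, the level of Anxa10 was 102 ± 16.7 CPM per kb in SI BRAFp53 on organoids and 30.4 ± 12.7 CPM per kb in COL BRAF on organoids, and that of Vsig1 was 0.324 ± 0.0312 and 20.1 ± 2.24 CPM per kb.

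In the order of the 12 group means, Anxa10 was highest in SI BRAFp53 on, followed by COL BRAF on, COL BRAFp53 on and SI BRAF on, and the libraries of COL BRAFp53 on and SI BRAF on overlapped. Below these 4 groups, COL BRAF off stood above the rest, and the groups from COL p53 on (5.64 ± 0.649 CPM) to SI p53 on (3.57 ± 2.71 CPM) overlapped their neighbours. For Vsig1 the order was COL BRAF on, COL BRAF off, COL BRAFp53 on, COL p53 on, COL p53 off, COL BRAFp53 off and SI BRAFp53 on, with no overlap between neighbours. For Ctse, COL p53 on, COL BRAF on, COL BRAFp53 on and COL p53 off formed a chain in which each overlapped the next.

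Over the 12 group means of log2(CPM + 0.1), Vsig1 and Ctse had a Pearson r of 0.93, and Anxa10 had 0.39 with Vsig1 and 0.72 with Gkn1. These values describe groups that share libraries and donor cultures and are split by tissue. Among 12241 genes with at least 1 CPM in some group, the patterns most like that of Anxa10 included those of Fam162a (r = 0.931) and Azgp1 (0.927). Those most like Vsig1 were Vldlr (0.987), Tnnc1 (0.974) and Qsox1 (0.967), and those most like Ctse were Arhgap6 (0.974), Pear1 (0.973) and Faxc (0.97). For Cldn18 they were Cmtm8 (0.939), Rac2 (0.909) and Gse1 (0.888). For Gjb5 they were Arrdc1 (0.978), Hpcal1 (0.975) and Capn5 (0.974), and for Tff2 Il1a (0.88), Plxnd1 (0.84) and Klhl13 (0.822), among 12242 genes. With a pseudocount of 1 CPM, only Fam162a, Pear1, Rac2, Arrdc1, Il1a and Plxnd1 of these were named again.

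Other genes of stomach epithelium changed in part. The 7 genes listed under pit cells were Muc5ac, Gkn2, Gkn3, Muc1, Capn8, Capn9 and Psca, and not all of them are limited to pit cells. Of these, 2 of 5 tested rose in COL BRAF, 1 rose and 2 fell in COL BRAFp53, 1 of 4 rose in SI BRAF and 2 of 4 in SI BRAFp53, where 10.3%, 9.95%, 17.5% and 6.98% of all genes were called higher. Psca, a surface antigen of stomach and prostate epithelium, rose in all 4 cultures, from 7.89 and 7.2 to 51 and 51.3 CPM in COL BRAF and from 0.193 and 0.0769 to 3.81 and 4.45 CPM in SI BRAFp53. Its log2 fold changes were 2.76 ± 0.31, 2.56 ± 0.31, 5.38 ± 0.43 and 4.9 ± 0.46 in COL BRAF, COL BRAFp53, SI BRAF and SI BRAFp53 (adjusted p at most 0.000265). Capn9, a calpain of the digestive tract, rose by 1.41 ± 0.22 in COL BRAF and 2.97 ± 0.47 in SI BRAFp53, whereas Gkn3 (-1.63 ± 0.46) and Capn8 (-0.96 ± 0.3) fell in COL BRAFp53. Capn9 was at 5.28 ± 0.418 CPM off and 5.06 ± 0.243 CPM on in COL BRAFp53. The COL p53 culture already held Psca at 36 ± 4.63 CPM and Capn9 at 10.9 ± 1.11 CPM before induction, the latter above the 5.94 ± 0.213 CPM of COL BRAF on organoids. Muc5ac, the main mucin of pit cells, had 1 count over all 24 libraries, and Gkn2 had 1. The list's median log2 fold change was 0.51, -0.43, 0.34 and 1.79 in these 4 cultures.

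Of 8 gland cell genes (Muc6, Pgc, Pga5, Cblif, Atp4a, Atp4b, Chia1 and Bhlha15), edgeR called 0 of 4 tested in COL BRAF and in COL BRAFp53, where 19.9% and 17.7% of all genes were called. It called 0 of 5 in SI BRAF and in SI BRAFp53, where 31.7% and 11.5% were. The list held 1 gene at an unadjusted p under 0.05 in COL BRAF, 0 in COL BRAFp53, 1 in SI BRAF and 3 in SI BRAFp53. DESeq2 called Atp4a in SI BRAF and Bhlha15 in SI BRAFp53, and limma-voom called Atp4a in SI BRAF and Bhlha15 and Pgc in SI BRAFp53. Pgc had enough counts to be tested in SI through the BRAFp53 on libraries alone.

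Among transcription factors of the foregut and the intestine, edgeR called 1 of 4 and 1 of 6 tested in COL BRAF, where 19.9% of all genes were called, and 1 of 4 and 2 of 6 in SI BRAF, where 31.7% were. Sox2, which specifies foregut, had 0 counts in every library. Of the other foregut factors, Onecut2 rose in COL BRAF (1.01 ± 0.16) and Foxa2 fell in SI BRAF (-1.44 ± 0.34), while 0 of 4 tested were called in the BRAFp53 cultures by edgeR, DESeq2 or limma-voom, with 1 at an unadjusted p under 0.05, by limma-voom in SI. The BRAF cultures stood apart in these factors before induction. Gata4 was at 46.3 ± 5.21 CPM in COL BRAF off, against 1.44 ± 0.756 in COL p53 off and 2.17 ± 0.641 in COL BRAFp53 off. Onecut2 was at 17 ± 1.94 CPM in SI BRAF off, against 149 ± 22.5 and 143 ± 7.1 in SI p53 and BRAFp53 off, and Pdx1 was at 0.391 ± 0.393 CPM against 4.13 ± 0.12 and 7.81 ± 0.515. Cdx1 and Cdx2, which specify intestine, were not called in any comparison of on with off, and Cdx2 was at 119 ± 6.17 and 138 ± 8.93 CPM in COL BRAF off and on and at 43.2 ± 4.66 and 40.7 ± 4.25 CPM in SI BRAFp53 off and on. Hnf4g fell in COL BRAF (-0.74 ± 0.19) and rose in SI BRAF (0.85 ± 0.18), where Hnf4a rose by 0.26 ± 0.09.

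Of 15 other genes linked to serrated lesions, 5 of 12 tested rose and 2 fell in COL BRAF, and 4 rose in COL BRAFp53, where 10.3% and 9.95% of all genes were called higher. In SI 3 of 7 tested rose with BRAFV600E and 2 with both oncogenes, where 17.5% and 6.98% of all genes were called higher, and the list's median log2 fold change was 1.24, 0.70, 0.75 and 1.35 in these 4 cultures. Tm4sf4, a tetraspan membrane protein, rose in all 4, by 3.08 ± 0.25 and 2.91 ± 0.25 in COL and by 5.05 ± 0.22 in both SI cultures. Mdfi, an inhibitor of myogenic factors, rose by 3.2 ± 0.59 in COL BRAF, and the NADPH oxidase subunit gene Duoxa2, whose exons overlap Duoxa1 on the other strand, by 1.58 ± 0.2 and 1.45 ± 0.2 in COL BRAF and BRAFp53. Trnp1 fell in COL BRAF (-3.69 ± 1.18), from 48 and 14 to 3 and 1 counts, and in COL BRAFp53 it was called higher with 0 counts off and 21 and 8 on. In both p53 cultures edgeR called 0 genes of the 7 lists, markers included, though 8 genes in COL and 4 in SI had an unadjusted p under 0.05. DESeq2 called 4 serrated lesion genes in COL p53, Slc6a14 and Tm4sf4 among them, and limma-voom 0.

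The 7 intestinal epithelium markers moved with induction as well. Of these 6 rose in COL BRAF, 6 in COL BRAFp53, 7 in SI BRAF and 4 in SI BRAFp53, where 10.3%, 9.95%, 17.5% and 6.98% of all genes were called higher. The list medians were 0.66, 0.82, 0.83 and 0.44, and 0 of the markers fell. The part of this shift in the changes of the gastric-type genes was not tested. Csf1r, a receptor of macrophages whose exons overlap Hmgxb3 on the other strand, had 23 and 89 counts off and 431 and 645 on in SI BRAFp53 (3.15 ± 0.83, adjusted p = 0.0271) and was called in SI BRAF too (2.79 ± 0.88, adjusted p = 0.0274). It was the only stromal or immune marker with enough counts to be tested in SI, 7 of the 10 being at or under the floor in both SI BRAFp53 on libraries, where Ptprc, the pan-leukocyte marker CD45, had 0 counts. Among the 8 gland cell genes, Chia1 was at 0 in all libraries and Atp4b at 6 counts or fewer, whereas Bhlha15 had 101 to 616 counts, Muc6 5 to 65 and Atp4a 4 to 437, and Pga5 had 13 to 75 in SI and 0 in COL.

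**Figure D4:**
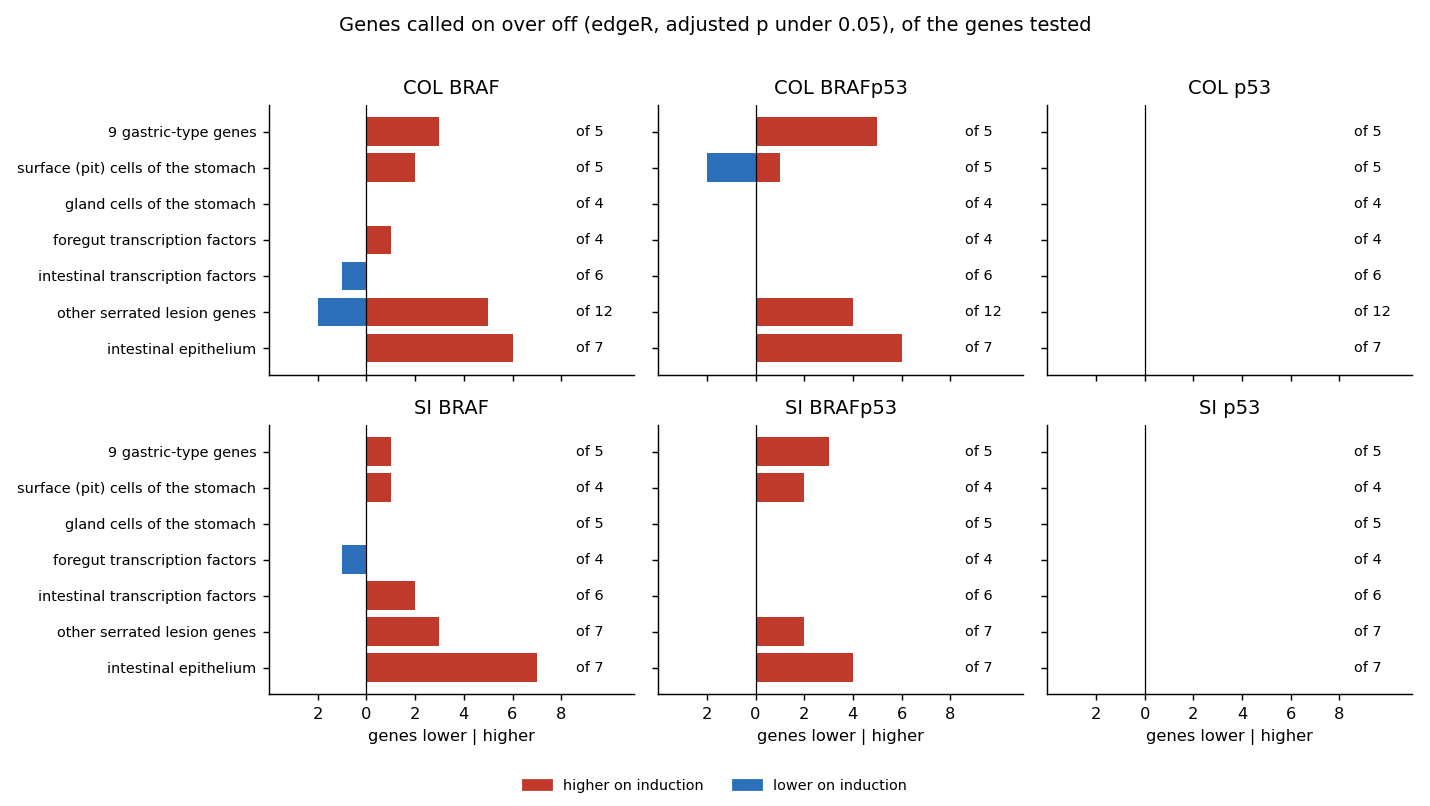
Number of genes called higher (red) or lower (blue) on induction by edgeR in each list and culture, with the number tested at the right of each bar. The gastric-type genes gave 3, 5, 1 and 3 higher calls in COL BRAF, COL BRAFp53, SI BRAF and SI BRAFp53, and no list had a call in the p53 cultures. Vsig1 and Ctse, 2 of the 3 in SI BRAFp53, could be tested only through the on libraries of that culture.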

How the data were processed

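Total RNA of 24 organoid libraries was sequenced in pairs of reads. Per the labels, the authors trimmed reads with Trimmomatic 0.36 and mapped and counted them per gene with STAR 2.5.2b; the deposited values are raw read counts, with replicates kept apart. The methods name mouse build mm10, and the submitters' processing notes name mm9 and mm10; the annotation release and use of strand are not given in the sources used here, so reads of genes that overlap may not be told apart. Of 45706 identifiers, 45143 had a symbol in GENCODE M21, whose GRCm38 coordinates and exon lengths are given here, and 563 had none. There were 0 unused columns of samples.

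Counts were scaled by TMM, filtered by filterByExpr and fitted in edgeR 4.0.16 (R 4.3.3) with estimateDisp, glmQLFit and glmQLFTest, over 12 libraries per tissue, over all 24 for COL minus SI responses, and over 3 summed off cultures per tissue. Adjusted p are Benjamini-Hochberg over all tested genes. The SE is the absolute log2 fold change over the square root of F. CPM were scaled over all 24 libraries. Folds against groups at 0 were taken against 3 counts per library. The procedure was tested on simulated data. The study used limma, which is an alternative here because the unit is counts; the others were DESeq2 1.42.0, limma-voom (limma 3.58.1), RLE size factors, no filter, at least 10 counts in every library, a replicate block and each library left out. For each list, up to 4 called genes with the largest log2 fold change in a BRAF or BRAFp53 culture were named, beside genes that define a cell type, and for likeness the 3 genes with the highest r, genes without a name skipped; a few genes that these rules name are not reported here. Members, lists and motifs were chosen with earlier results of these data known. Replicate libraries had r of 0.971 to 0.9873, and no pair agreed within sampling noise.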

Additional observations from a re-analysis of the deposited data

Results flagged for a closer look

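By a test of the difference itself, the response to induction differed between the COL cultures, BRAFp53 minus BRAF, for 1 of 5 tested genes, where 0.907% of all genes were called. For BRAFp53 it differed between tissues for 3 of 7, where 3.52% were. The SI difference, BRAFp53 minus BRAF, gave 0 of 5 calls (8.2% of all genes), and the BRAF response, COL minus SI, 0 of 7 (10.7%). Most of the genes had few counts in the SI BRAF culture, so the latter counts are not read against the shares. The difference was 1.78 on the log2 scale for Vsig1 in COL, BRAFp53 minus BRAF (adjusted p = 0.0354). The call was lost without any 1 of 5 libraries (adjusted p 0.0512 to 0.106), while the difference in those fits stayed between 1.59 and 1.96. Donor culture and genotype cannot be told apart there. For BRAFp53, COL minus SI, it was -2.44 for Anxa10 (adjusted p = 0.0143, and 0.0612 to 0.0788 without any 1 of 4 libraries), -5.94 for Vsig1 (adjusted p = 0.00959) and -8.73 for Ctse (adjusted p = 0.00325). The sizes for Vsig1 and Ctse rest on SI off libraries with 0 counts and depend on the small count that edgeR adds, so they are no measure of fold and their calls are not read against the share of all genes. In these comparisons tissue, 4-HT dose, day of RNA, culture medium, donor and donor sex cannot be told apart.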

How the results depend on the processing

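Among the log2 fold changes of single members under the alternatives, 987 kept their side of the threshold, 25 gained a call, 29 lost it and 0 that were called changed sign. The number of members called moved as follows. Without a filter on low counts it was 5 in COL BRAF (3 as reported), 2 in COL p53 (0), 1 in SI p53 (0), 1 for the SI difference BRAFp53 minus BRAF (0), 1 for the BRAF response, COL minus SI (0), 4 for that of BRAFp53 (3) and 3 for off COL against off SI (2). With at least 10 counts in every library, fewer members were tested, and it was 3 in COL BRAFp53 (5), 1 in SI BRAFp53 (3), 1 for the BRAFp53 response, COL minus SI (3), and 0 for off COL against off SI (2). DESeq2 called 4 in COL BRAF, 2 in COL p53, 2 in SI BRAFp53, 4 for the BRAFp53 response, COL minus SI, and 3 for off COL against off SI. Limma-voom called 4 each in COL BRAF, COL BRAFp53 and SI BRAFp53, and 2 for the BRAFp53 response, COL minus SI. With 1 library left out the numbers ranged from 2 to 4 in COL BRAF, 3 to 5 in COL BRAFp53, 2 to 3 in SI BRAFp53, 0 to 1 for each of the COL and SI differences BRAFp53 minus BRAF, and 1 to 4 for the BRAFp53 response, COL minus SI.

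Among all genes, calls in COL p53 went from 27 to 569 without a filter, 333 by DESeq2 and 15 with the replicate block, and in SI p53 from 0 to 155, 58 and, by limma-voom, 1. For the COL difference BRAFp53 minus BRAF they went from 0.907% of tested genes to 1312 genes without a filter, 391 with at least 10 counts, 1368 by DESeq2 and 17 with the replicate block. For the SI difference they went from 1383 to 2121 by DESeq2, and for the BRAFp53 response, COL minus SI, from 693 to 1548 without a filter and 1633 by DESeq2. With 1 library left out, calls ranged from 1961 to 3977 in COL BRAF (3776), 1699 to 3576 in COL BRAFp53 (3360), 0 to 63 in COL p53, 887 to 2279 in SI BRAFp53 (1941), 0 to 17 in SI p53, 0 to 358 for the COL difference, 597 to 2128 for the SI difference, 1202 to 2142 for the BRAF response, COL minus SI (2108), and 235 to 910 for that of BRAFp53. The cause was not tested.

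Replicate numbers were shared by on and off libraries, but the deviations of libraries with the same number correlated at -0.044 to 0.078 only, so the numbers were not taken to pair samples. With the replicate block, members called were 0 for the COL difference BRAFp53 minus BRAF (Vsig1, adjusted p = 0.0551), 1 for the SI difference (Anxa10, 0.0337), 4 in COL BRAF (Ctse gained, 0.0466) and 4 in COL BRAFp53 (Gjb5 lost, 0.0574).

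In the fits of all 24 libraries, the p53 libraries were not left out in turn. With 2 libraries a group, genes near the floor (Tff1, Tff2, Gkn1, Aqp5, and Vsig1 in SI) rest on few reads, and 1 donor culture per genotype gives no spread between animals.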

Other observations

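Pgc, the pepsinogen C gene of stomach gland cells, was chosen after its values were seen. It had 22 and 20 counts in the SI BRAFp53 on libraries and 2 and 0 in the off libraries, a ratio of 19.8 (95% interval 5.16 to 169, counting error only), and at most 5 counts in the other 8 SI libraries. In COL it had 6 and 9 counts on and 2 and 1 off in the BRAFp53 culture (ratio 5.07, interval 1.43 to 27.3), and its highest count, 23, was in COL p53 off replicate 1, whose replicate had 2. It had too few counts to be tested in COL, it was not called by edgeR in any of the 3 SI cultures, and limma-voom called it in SI BRAFp53, through whose on libraries alone it had enough counts to be tested. The other gland cell genes tested in SI BRAFp53 went both ways, and edgeR called none. Bhlha15 was higher on than off and was called by DESeq2 and limma-voom. Muc6 was at 0.462 ± 0.19 CPM off and 0.724 ± 0.488 CPM on. Pga5, also a pepsinogen, was lower, with 17 and 13 counts on against 55 and 32 off (log2 fold change -1.61 ± 0.53, adjusted p = 0.0707). Atp4a was lower too, with 54 and 42 counts against 120 and 89 (-1.2 ± 0.62, adjusted p = 0.261).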
